A study of Homo sapiens with 9 samples.

Results

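The MHC class I antigen presentation genes are a group of 9 genes, HLA-B, HLA-C, HLA-E, B2M, TAP1, TAP2, TAPBP, PSMB8 and PSMB9, taken by symbol from the 36601 gene rows of the count files. All 9 were found in each of the 6 libraries. Single-cell RNA was measured in U2OS cells, a human osteosarcoma line, in which RPB1, the largest subunit of RNA polymerase II, carried HaloTag or Dendra2 at its N-terminus and a C-terminal domain (CTD) of 25, 52 or 70 repeats, here 25R, 52R and 70R. The 6 genotypes were HaloTag-RPB1-25R, HaloTag-RPB1-52R, HaloTag-RPB1-70R, Dendra2-RPB1-25R, Dendra2-RPB1-52R and Dendra2-RPB1-70R, and every one, both tags included, had received α-amanitin, an RNA polymerase II inhibitor, at 1 µg per ml for 6 days. Each genotype was 1 library, and the labels name no separate cultures of a genotype. By the design text of the series, the HaloTag and Dendra2 libraries were sequenced on different dates, here called campaigns, so that tag and sequencing campaign cannot be told apart, whereas 25R, 52R and 70R were compared within a campaign.

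MHC class I molecules show peptides from inside the cell to CD8+ T cells. Peptides are cut by the proteasome, carried into the endoplasmic reticulum by the TAP transporter, and loaded with the help of tapasin onto a heavy chain held by β2-microglobulin. The genes are expressed in most nucleated cells and are known for their induction by interferons, through interferon-response elements bound by IRF and STAT factors and through the transactivator NLRC5.

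Except for B2M on chromosome 15 (GRCh38, 44711358 to 44718851), the genes lie in the MHC region on chromosome 6, where the annotated span of PSMB9 (32844136 to 32859851, plus strand) contains that of TAP1 (32845209 to 32853816, minus strand). TAP2 (32821833 to 32838739), TAPBP (33299694 to 33314284), HLA-B (31353872 to 31367067) and HLA-C (31268749 to 31272130) are on the minus strand, and HLA-E (30489509 to 30494194) is on the plus strand. The start sites of TAP1 and PSMB9 are 488 bp apart and point away from each other. The 250 bases before the start site are shown for this pair, whose levels were negatively correlated across libraries, and for B2M, HLA-B and HLA-C, which covaried across cells. Each is printed 5′ to 3′ on the strand of its gene, from RefSeq on GRCh38.p14: TAP1 at chr6:32853705-32853954 (minus), PSMB9 at chr6:32853942-32854191 (plus), B2M at chr15:44711267-44711516 (plus), HLA-B at chr6:31357180-31357429 (minus) and HLA-C at chr6:31272093-31272342 (minus). Capitals mark matches of the interferon-response core (TTTC, 2 bases of any kind and TTTC), of its shorter form TTTCNNTTC and of the κB motif, on either strand.
TAP1: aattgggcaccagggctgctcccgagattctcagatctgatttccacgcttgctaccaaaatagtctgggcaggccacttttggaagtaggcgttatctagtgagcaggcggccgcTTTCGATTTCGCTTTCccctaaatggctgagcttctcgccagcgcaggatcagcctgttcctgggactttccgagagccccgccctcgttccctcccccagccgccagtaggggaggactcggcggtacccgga
PSMB9: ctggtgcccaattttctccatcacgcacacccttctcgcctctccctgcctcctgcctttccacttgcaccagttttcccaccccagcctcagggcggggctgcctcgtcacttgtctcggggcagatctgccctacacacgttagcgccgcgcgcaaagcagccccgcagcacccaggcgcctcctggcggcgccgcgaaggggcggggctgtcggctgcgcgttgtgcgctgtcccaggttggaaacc
B2M: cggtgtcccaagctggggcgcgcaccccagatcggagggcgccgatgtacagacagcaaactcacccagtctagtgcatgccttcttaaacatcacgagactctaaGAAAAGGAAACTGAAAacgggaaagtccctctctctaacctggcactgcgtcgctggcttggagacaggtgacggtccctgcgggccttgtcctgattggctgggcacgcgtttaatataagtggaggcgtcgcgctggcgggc
HLA-B: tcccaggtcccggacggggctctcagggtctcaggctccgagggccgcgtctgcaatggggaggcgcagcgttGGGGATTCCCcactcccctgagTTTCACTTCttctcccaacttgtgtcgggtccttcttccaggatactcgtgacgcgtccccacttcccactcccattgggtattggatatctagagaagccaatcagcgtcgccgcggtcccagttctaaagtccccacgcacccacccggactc
HLA-C: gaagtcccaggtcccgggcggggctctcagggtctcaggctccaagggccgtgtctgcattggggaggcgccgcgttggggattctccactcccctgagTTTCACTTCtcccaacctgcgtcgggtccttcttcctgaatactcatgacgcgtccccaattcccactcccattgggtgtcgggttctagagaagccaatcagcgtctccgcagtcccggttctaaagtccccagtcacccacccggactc

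Promoter windows from 250 bases before to 50 after a start site were found for 8 of the 9 genes, HLA-E being the one without an entry. The interferon-response core was present in a window of TAP1, TAP2, TAPBP, B2M and PSMB8, and it was present in 3.57% of all 35116 RefSeq windows. TAP1 held 2 overlapping matches, which begin at −134 and −128 from the start site, and B2M held 2 overlapping matches, at −144 and −138. No match to these letters was in the PSMB9, HLA-B or HLA-C window. HLA-B and HLA-C held the shorter form, at −155 and −151, which was in 7.66% of all windows and was searched after these windows had been seen. The shorter form was also in the TAP2 window, at −63, and in the alternative PSMB8 window, at 2. It was this alternative window that held the interferon-response core of PSMB8. The κB motif was in HLA-B alone among these genes, at −177, and in 0.0769% of all windows. The HLA-B and HLA-C windows were identical at 88.5% of 304 alignment columns, and the TAP1 and PSMB9 windows overlapped by 13 bases. The interferon-γ-activated site TTCNNNGAA (7.66% of windows) was in an alternative window of TAP1 and of PSMB8, the CCAAT box (34.6%) in windows of HLA-B, HLA-C, B2M, TAP1 and PSMB9, and the CRE core TGACG (24.6%) in windows of HLA-B, HLA-C, B2M, TAP2, PSMB8 and PSMB9. These are matches of letters, not tested sites.

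The libraries held 2718 to 4677 cells after filtering and 52553686 to 58442223 unique molecular identifiers (UMIs), counted at transcript 3′ ends, and pairs of libraries shared between 0 and 7 cell barcodes. The labels call the cells epithelial. VIM, the mesenchymal intermediate filament, stood between 2495 and 3736 CPM (CPM being edgeR's counts scaled to a common library total), and the 9 mesenchymal markers summed to between 2965 and 4110 CPM, with COL1A2 and NT5E at no more than 11 and 8 UMIs. The 8 epithelial markers summed to between 901 and 1646 CPM, mostly the keratins KRT18 (741 to 1250 CPM) and KRT8 (152 to 565 CPM). The epithelial adhesion genes EPCAM and CDH1 stood between 0.216 and 7.85 CPM and between 0.106 and 0.422 CPM, so markers of both kinds were present. Markers of leukocytes, which carry abundant class I molecules, summed to between 1.06 and 3.20 CPM over 10 genes, 2 of which are also on the class II list. Of all the pathway and marker lists, the mesenchymal marker FN1, a matrix glycoprotein, was the only gene called by edgeR, between tags, with 59.1, 71.7 and 59.4 CPM in HaloTag with 25R, 52R and 70R, against 21.7, 33.9 and 22.3 CPM in Dendra2 (log2 1.31 ± 0.14; edgeR adjusted p = 0.0329). A difference in summed counts can come from fewer cells with the transcript or from less RNA per cell, and these cannot be told apart from the sums. The reads of HLA genes may be split by the match between U2OS alleles and the reference sequence, and whether the counting used strand is not stated in the labels or files used here, so the counts of TAP1, PSMB8 and PSMB9 may include reads from an overlapping gene (the span of PSMB8 on the minus strand, 32840717 to 32844679, reaches into that of PSMB9).

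**Figure D1:**
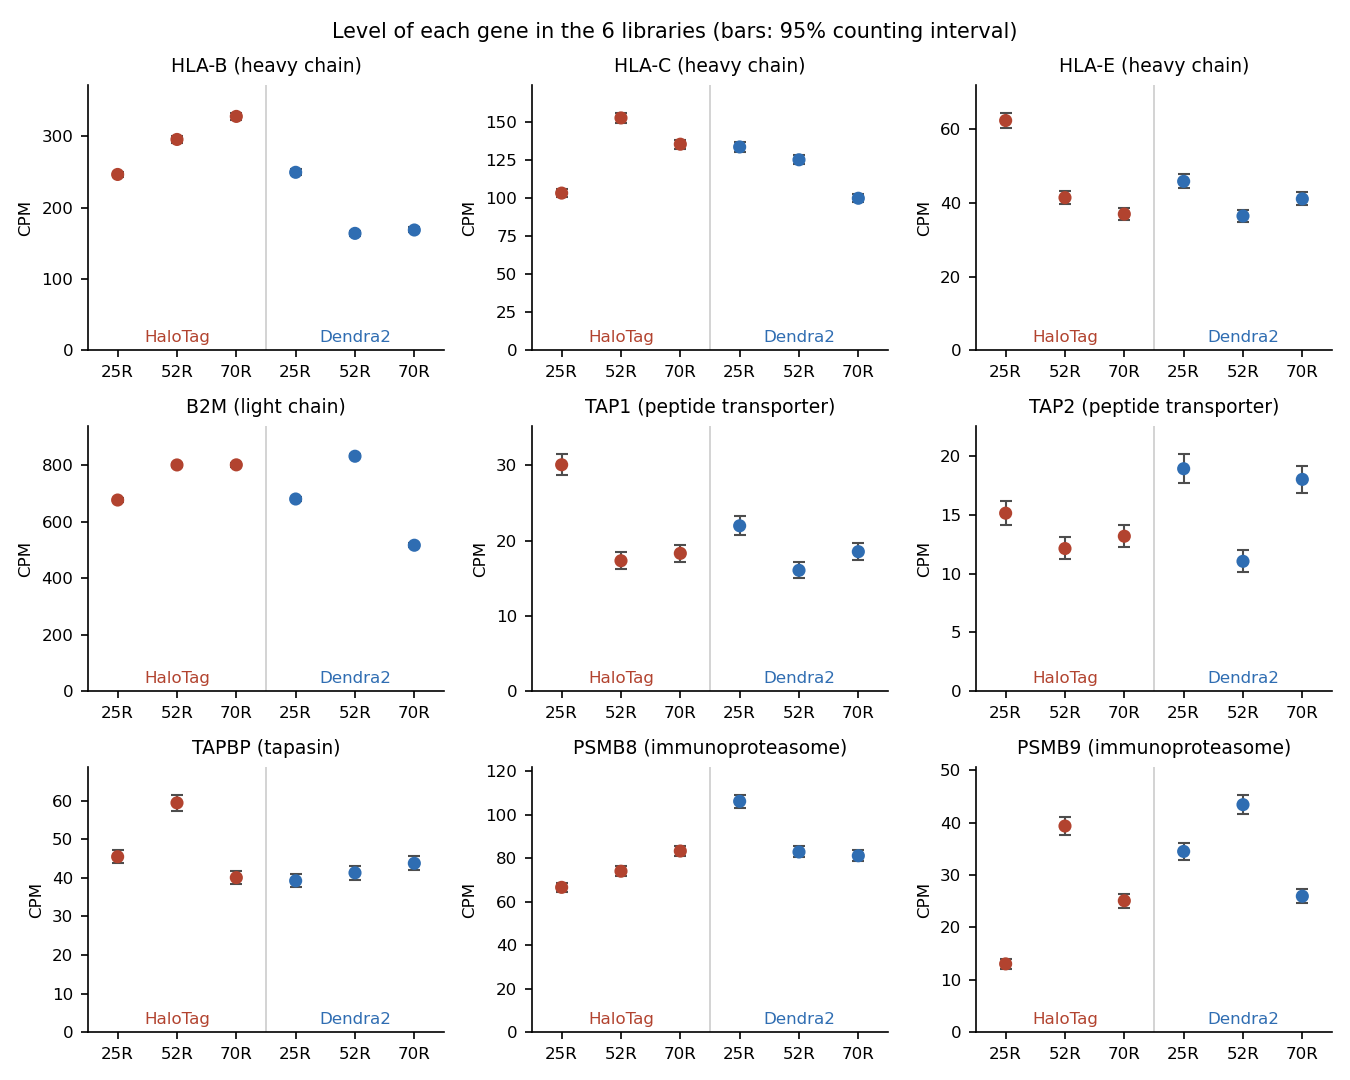
Level of each gene in CPM (y axis, from 0) in the 3 HaloTag and the 3 Dendra2 libraries (x axis, by CTD repeats). Points are single libraries and bars are 95% Poisson intervals of the UMI count, so they cover counting error only; PSMB9 in HaloTag 25R stands at 13.1 CPM, against 25.1 to 43.4 CPM in the other 5 libraries.

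Among the heavy chains, which form the peptide groove, HLA-B had 247, 296 and 328 CPM in HaloTag with 25R, 52R and 70R, against 250, 164 and 169 CPM in the Dendra2 libraries of 25R, 52R and 70R. The 2 tags overlapped, and both 25R libraries lay at nearly the same level, with overlapping 95% counting intervals of 243 to 251 CPM for HaloTag and 245 to 254 CPM for Dendra2. The mean was 290.1 ± 41.0 CPM in HaloTag and 194 ± 48.1 CPM in Dendra2 libraries (SD, n = 3 each). An exact permutation test, two-sided, gave p = 0.2 for it (0.7 adjusted over the 9 genes), in a design that cannot go below 0.1. In single pairs the HaloTag to Dendra2 ratio was 0.988 at 25R, 1.80 at 52R and 1.94 at 70R. The difference of HLA-B between HaloTag and Dendra2 was 0.60 ± 0.21 (log2, SE, 6 libraries; edgeR unadjusted p = 0.0275, adjusted p = 0.206), and it was between 0.41 and 0.88 when any 1 library was left out.

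HLA-C stood at 103, 153 and 136 CPM in HaloTag with 25R, 52R and 70R, against 134, 125 and 100.1 CPM in Dendra2. HaloTag 52R and 70R were above and Dendra2 70R was below every library of the other tag, while the ranges overlapped between them. However, counting intervals overlapped between HaloTag 70R and Dendra2 25R and between HaloTag 25R and Dendra2 70R. The difference of HLA-C between tags was 0.12 ± 0.18 (log2, SE, edgeR adjusted p = 0.745). HLA-E, the heavy chain that presents leader peptides to NKG2A receptors on natural killer cells, stood at 62.2, 41.3 and 36.9 CPM in HaloTag, against 45.7, 36.4 and 41.0 CPM in the Dendra2 libraries of 25R, 52R and 70R. It was highest in the 25R library of each tag. B2M, the light chain shared by all class I heavy chains, stood at 676, 799.8 and 800.2 CPM in HaloTag, against 680 CPM in 25R, 831 CPM in 52R and 516 CPM in 70R of Dendra2. Its highest and lowest libraries were both Dendra2, and its difference between tags was 0.19 ± 0.17 (log2, SE; edgeR adjusted p = 0.567).

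The transporter genes TAP1 and TAP2 encode the subunits of the peptide pump. TAP1 had 30.1, 17.3 and 18.3 CPM in HaloTag with 25R, 52R and 70R, against 21.99, 16.1 and 18.6 CPM in Dendra2. Both 25R libraries were above the 4 others, and neighbours in order among those 4 had overlapping counting intervals. TAP2 had 15.1, 12.1 and 13.2 CPM in HaloTag, against 18.9, 11.0 and 17.99 CPM in the Dendra2 libraries of 25R, 52R and 70R. TAP2 was lowest in the 52R library of each tag, but with HaloTag the counting intervals of 52R (11.2 to 13.1 CPM) and 70R (12.2 to 14.2 CPM) overlapped. TAPBP is tapasin, which bridges the transporter and the empty heavy chain. It stood at 45.5, 59.4 and 40.1 CPM in HaloTag, against 39.2, 41.3 and 43.8 CPM in Dendra2. HaloTag 52R stood above the other 5 libraries, whose neighbours in order had overlapping counting intervals. Among those 5, the intervals of HaloTag 25R (43.8 to 47.2 CPM) and Dendra2 25R (37.5 to 41.0 CPM) did not overlap.

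The immunoproteasome subunits PSMB8 and PSMB9 replace constitutive catalytic subunits and change which peptides are cut. PSMB8 had 66.6, 74.0 and 83.3 CPM in HaloTag with 25R, 52R and 70R, against 106, 82.9 and 81.1 CPM in Dendra2. The 25R libraries were its lowest with HaloTag and its highest with Dendra2. PSMB9 had 13.1, 39.3 and 25.1 CPM in HaloTag, against 34.5, 43.4 and 26.0 CPM in the Dendra2 libraries of 25R, 52R and 70R. The 773 UMIs of PSMB9 in HaloTag 25R gave a 95% counting interval of 12.2 to 14.0 CPM, below that of every other library, and the highest library stood 3.32 times above it. The SD of PSMB9 over the 6 libraries was 0.63 on the log2 scale, larger than that of 95.8% of the 4438 genes within 2-fold of its mean level. For HLA-B, with an SD of 0.41, that share was 87.8%, and for the other 7 genes it was between 47.0% and 70.6%.

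**Figure D2:**
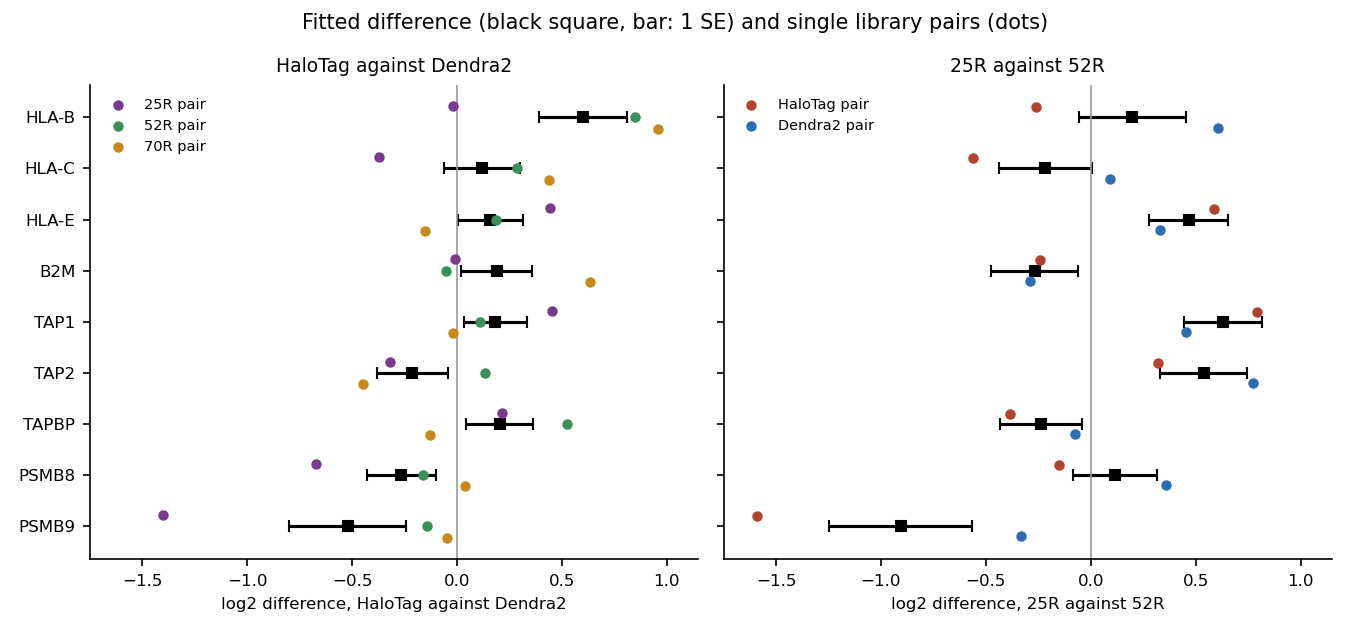
Fitted log2 difference of each gene (black squares, bars 1 SE) between HaloTag and Dendra2 (left) and between 25R and 52R (right), with the single library pairs as dots. The 25R pair of HLA-B lies at −0.02 on the left, apart from 0.85 and 0.96 in the 52R and 70R pairs, and the 2 pairs of PSMB9 on the right lie at −1.59 with HaloTag and −0.33 with Dendra2.

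By the title of the study, N-terminal tags were set against changes of the C-terminal domain. No gene of the 9 passed an adjusted p of 0.05 between HaloTag and Dendra2 by edgeR or by DESeq2. Over all genes, edgeR called 0.26% of 18069 tested, and DESeq2 called 1123 of the 15967 to which it gave an adjusted p. At an unadjusted edgeR p under 0.05 there was 1 of 9, HLA-B, against 19.5% of all genes. The log2 difference was above 0 for 6 of 9 genes, with a median of 0.16, against 52.5% of all genes and a median of 0.03. Below 0 were TAP2 at −0.21 ± 0.17 (edgeR adjusted p = 0.515), PSMB8 at −0.27 ± 0.17 (edgeR adjusted p = 0.416) and PSMB9 at −0.52 ± 0.28 (edgeR adjusted p = 0.354). Without either of the 25R libraries the difference was −0.12 for PSMB9, between −0.09 and −0.08 for PSMB8 and 0.02 for TAP1. Without either of the 70R libraries it was −0.10 for TAP2, and without either of the 52R libraries it was 0.04 for TAPBP. Exact permutation tests over the 3 libraries of each tag gave p between 0.2 and 0.7 for the 9 genes, and the tags overlapped for each gene. No genotype had a second library. The p-values of the fits thus rest on how far the tag difference varies over CTD lengths (2 residual degrees of freedom). They also draw on the spread of all genes, which edgeR pools, so they do not rest on those 2 degrees of freedom alone.

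The CTD of 52 repeats is the length of the human protein, and 25R shortens it. In 25R against 52R, none of the 9 genes was called by edgeR or by DESeq2. Over all genes, edgeR called 0.0443% of those tested (0.0221% higher and 0.0221% lower), and DESeq2 called 489 of 16667. At an unadjusted edgeR p under 0.05 there were 4 of 9, against 12.7% of all genes. The log2 difference of TAP1 was 0.63 ± 0.19 (SE, 6 libraries; edgeR unadjusted p = 0.0137, adjusted p = 0.29), and it was 0.79 in the HaloTag pair and 0.45 in the Dendra2 pair. TAP2 had 0.54 ± 0.21 (edgeR adjusted p = 0.368) and HLA-E had 0.47 ± 0.19 (edgeR adjusted p = 0.384), each above 0 in both tags with counting intervals that excluded 0. PSMB9 had −0.91 ± 0.34 (edgeR unadjusted p = 0.0366, adjusted p = 0.362), with −1.59 in the HaloTag pair and −0.33 in the Dendra2 pair. Without Dendra2 25R the PSMB9 difference was −1.59 (edgeR adjusted p = 0.0235), and without HaloTag 25R it was −0.32. The first value repeats the HaloTag pair: 25R is then 1 library, assumed to vary like the others, with 1 residual degree of freedom, and 538 genes were called in that fit, against 8 with all libraries. Without HaloTag 25R, TAP1 had 0.41 and HLA-E had 0.23, and without Dendra2 52R, TAP2 had 0.30 and B2M had −0.06. B2M was also below 0 in both tags, at −0.24 in HaloTag and −0.29 in Dendra2 (fitted −0.27 ± 0.21; edgeR adjusted p = 0.61). HLA-B, HLA-C and PSMB8 had opposite signs in the 2 tags with both counting intervals off 0, which held for 17.8% of the 8183 genes with a mean of at least 10 CPM.

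A CTD of 70 repeats lengthens it. In 70R against 52R, edgeR called 0 of the 9 genes and 0% of all genes tested. An unadjusted edgeR p under 0.05 was found for 4.63% of all genes and 0 of the 9. DESeq2 called 67 of 17018 genes, none of them of this group. The largest fitted values were those of PSMB9 at −0.69 ± 0.34 and TAP2 at 0.41 ± 0.21 (log2, SE; edgeR adjusted p = 0.961 for both). PSMB9 was lower in 70R in both pairs, with −0.65 for HaloTag and −0.74 for Dendra2 and counting intervals that excluded 0, whereas TAP2 had 0.12 for HaloTag and 0.70 for Dendra2. Without Dendra2 52R the TAP2 difference was 0.17, and without HaloTag 52R that of PSMB9 was −0.37. B2M had 0.00064 in the HaloTag pair and −0.69 in the Dendra2 pair. Between 70R and 25R, edgeR called 0 of the 9 genes and 0% of all genes, DESeq2 called 448 genes and none of the 9, and an unadjusted edgeR p under 0.05 was found for 12.3% of all genes and for 1 of 9. That gene was TAP1 at −0.48 ± 0.19 (edgeR adjusted p = 0.383), with −0.72 for HaloTag and −0.25 for Dendra2, and −0.26 in the fit without HaloTag 25R. HLA-B, HLA-C, B2M, TAPBP, PSMB8 and PSMB9 had opposite signs in the 2 tags in that comparison, which held for 24% of genes.

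TAP1 and PSMB9 share the region between their start sites, and their ratio within a library does not depend on library scaling. The ratio of TAP1 to PSMB9 UMIs was 2.30, 0.441 and 0.731 in the HaloTag libraries with 25R, 52R and 70R, against 0.638, 0.370 and 0.715 in those with Dendra2. In HaloTag 25R, TAP1 was at its highest and PSMB9 at its lowest of the 6 libraries. The ratio was lowest in the 52R library of each tag. Pearson's r between their log2 CPM over the 6 libraries was −0.85, and it was 0.96 between HLA-E and TAP1, −0.82 between B2M and TAP2 and 0.76 between HLA-C and B2M. These are the most extreme of 36 pairs apart from −0.78 for HLA-E and PSMB9, are given with no test, and rest on 6 points in which HaloTag 25R often stands at an end.

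The ratio of B2M UMIs to the sum of HLA-B and HLA-C UMIs was 1.93, 1.78 and 1.73 in the HaloTag libraries with 25R, 52R and 70R, against 1.77, 2.87 and 1.92 in those with Dendra2. Dendra2 52R stood apart from the other 5 libraries, with the highest B2M level and the lowest HLA-B level of the 6. HLA-B exceeded HLA-C in UMIs by 2.38, 1.94 and 2.42 times in HaloTag, against 1.87, 1.31 and 1.69 times in Dendra2 25R, 52R and 70R. These ratios compare libraries, not the molar amounts of the genes.

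**Figure D3:**
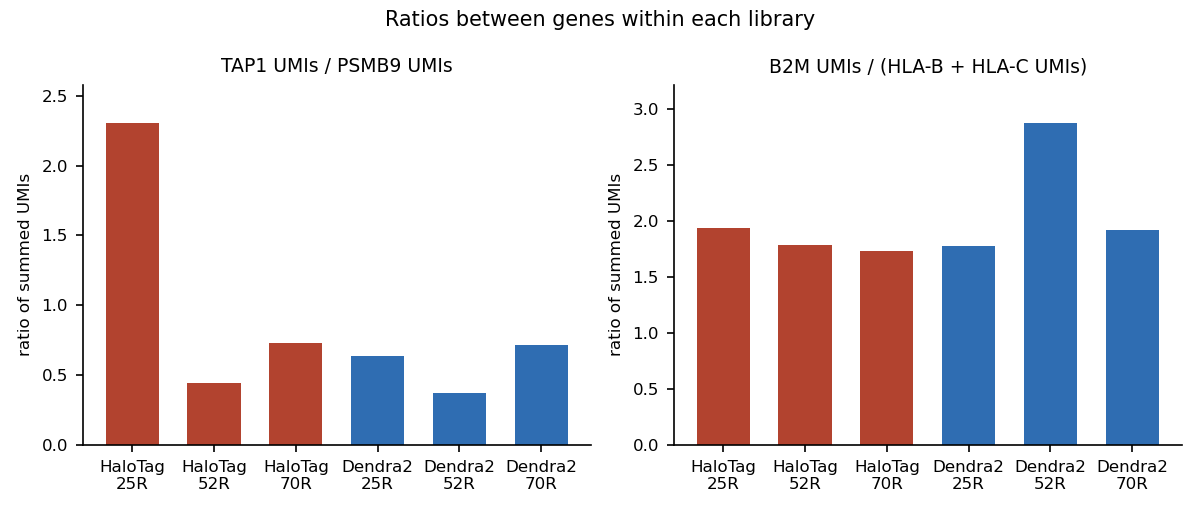
Ratio of summed UMIs (y axis, from 0) in each library (x axis; HaloTag red, Dendra2 blue) for TAP1 over PSMB9 (left) and for B2M over the sum of HLA-B and HLA-C (right). The left ratio is 2.30 in HaloTag 25R and at most 0.731 elsewhere, and the right ratio is 2.87 in Dendra2 52R and at most 1.93 elsewhere.

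The share of cells with at least 1 UMI of B2M was between 97.6% and 99.6% of cells, and for HLA-B between 87.3% and 94.4%. With every cell thinned to 5000 UMIs, which left out 34 to 217 cells per library, HLA-B was found in 67.7%, 73.4% and 74.7% of cells in the HaloTag libraries with 25R, 52R and 70R, against 64.3%, 51.3% and 54.5% in those with Dendra2. The thinned shares gave HaloTag 70R the highest place, as the CPM did, although its unthinned share of 89.2% was below that of HaloTag 25R, whose cells had more UMIs (median 16020, against 10812 in HaloTag 70R). PSMB9 was found in 6.55%, 18.1% and 12.0% of thinned cells in the HaloTag libraries with 25R, 52R and 70R, against 14.9%, 19.2% and 11.7% in those with Dendra2. The unthinned shares of PSMB9 were 18.6%, 41.0% and 23.6% in HaloTag, against 36.9%, 50.4% and 35.4% in Dendra2. TAP1 was found in 14.4%, 9.001% and 8.95% of thinned cells in HaloTag, against 10.1%, 7.34% and 8.34% in Dendra2 25R, 52R and 70R. Unthinned, these were 38.3%, 22.5% and 18.9% in HaloTag, against 28.0%, 24.5% and 28.8% in Dendra2. No cell type without these genes is in a culture of 1 line, so the share due to free RNA in droplets was not measured.

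The spread between cells was taken from the authors' kinetic tables, which give per gene the fitted mean of UMIs per cell, a value K and the variance over the squared mean. Where 1/K is added to the counting noise of the mean, a larger K means less spread beyond counting. The authors' K of HLA-B was 3.47, 2.57 and 2.15 in the HaloTag libraries with 25R, 52R and 70R, against 2.32, 2.47 and 2.52 in those with Dendra2. The authors' K of HLA-C was 4.79, 3.02 and 3.10 in HaloTag, against 2.66, 3.52 and 2.88 in Dendra2, and that of B2M was 5.80, 4.57 and 3.75 in HaloTag, against 3.74, 4.64 and 3.60 in Dendra2. For HLA-B, HLA-C and B2M alike HaloTag 25R had the highest K, and the authors' lower limit of 5.39 for B2M there was above the upper limit of 4.97 of the next library, Dendra2 52R. The tables are not scaled for depth, so K also takes in differences in total UMIs between cells, and these values are not free of them.

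The authors' K of PSMB9 was 1.46, 2.01 and 1.36 in the HaloTag libraries with 25R, 52R and 70R, against 1.32, 2.49 and 1.55 in those with Dendra2, highest in the 52R library of each tag. That of PSMB8 was 3.35, 4.15 and 4.54 in HaloTag, against 3.52, 5.19 and 3.83 in Dendra2. PSMB9 thus had a lower K than PSMB8 in every library. For rarely detected genes the fit was loose, as in TAP2 of Dendra2 52R, where the authors' K of 60.3 had limits of 4.54 and 1333. Taking K as burst frequency and the mean over K as burst size, none of the 9 genes was called between HaloTag and Dendra2 by limma, which called 0% of 9710 genes for frequency (8.27% at an unadjusted p under 0.05) and 1.38% for size (16.6% at an unadjusted p under 0.05). At an unadjusted limma p under 0.05 there were 0 of 9 for frequency and 1 of 9, PSMB9, for size. For frequency TAP1 had 0.14 ± 0.06 (log10, SE, 6 libraries; limma adjusted p = 0.639), from values of K that were themselves loose, with authors' limits of 1.98 and 79.7 in HaloTag 52R. For burst size PSMB9 had −0.22 ± 0.10 (log10, SE; limma adjusted p = 0.297), beside a median of −0.11 over all genes and a value of −0.11 for PSMB9 without either 25R library, and HLA-B had 0.05 ± 0.07 (limma adjusted p = 0.779).

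**Figure D4:**
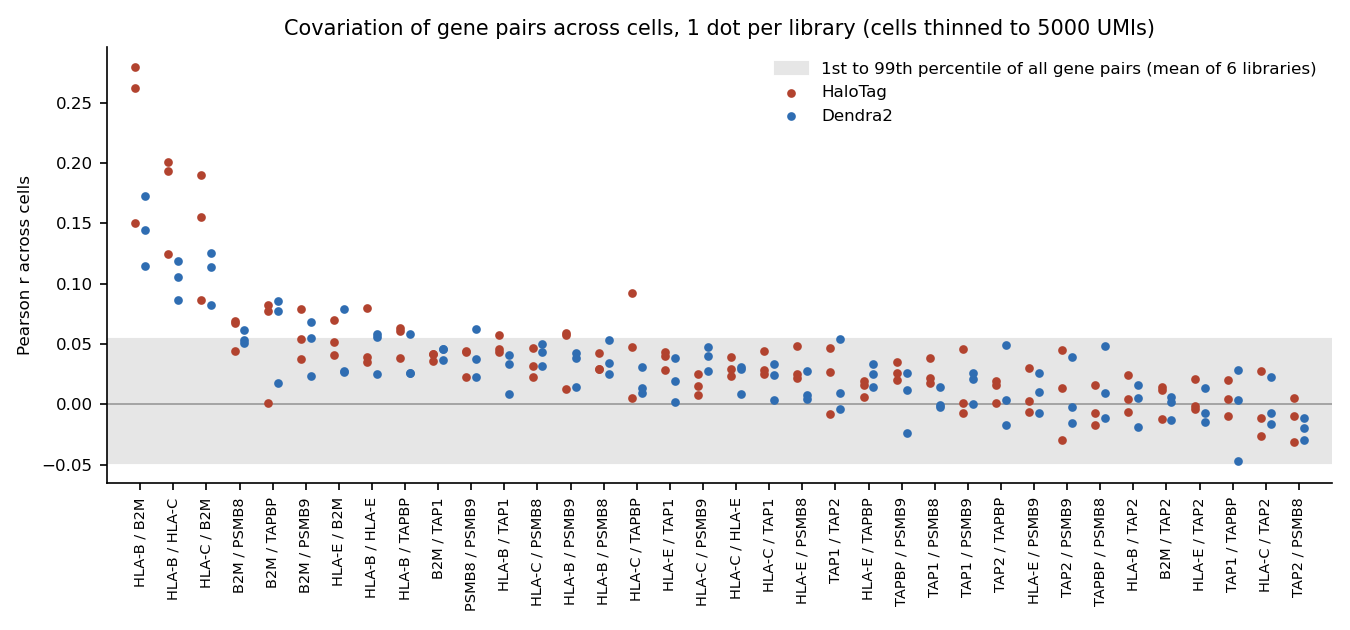
Pearson's r across cells (y axis) for the 36 pairs of the 9 genes (x axis, by falling mean), 1 dot per library, HaloTag red and Dendra2 blue, with cells thinned to 5000 UMIs. The 3 pairs among HLA-B, HLA-C and B2M lie above the grey band of the middle 98% of all gene pairs in every library. The other 33 pairs have a mean r of at most 0.06, with some single libraries above the band. The band is not matched for level.

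Within libraries, cells with more HLA-B had more B2M and HLA-C at equal depth. Pearson's r between HLA-B and B2M, of log2(thinned UMIs + 1), was 0.15, 0.26 and 0.28 in the HaloTag libraries with 25R, 52R and 70R, against 0.17, 0.14 and 0.12 in those with Dendra2. For HLA-B and HLA-C it was 0.13, 0.19 and 0.20 in HaloTag, against 0.12, 0.09 and 0.11 in Dendra2. For HLA-C and B2M it averaged 0.13 over the 6 libraries and was at least 0.08. The 99th percentile of r over all pairs of 8208 genes was between 0.05 and 0.06 in each library. All 3 pairs were above it in every library, and r is here a description over cells that share a library.

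The other 33 pairs had mean r of at most 0.06, and those with TAP2 were between −0.02 and 0.02. In counts this sparse such small values are given as description only. By mean r among 8207 genes, B2M was at rank 1 for PSMB8 (0.06) and PSMB9 (0.05). It was at rank 2 for TAP1 (0.04) and TAPBP (0.06), but at rank 24 for HLA-E and rank 4170 for TAP2. Among 8207 genes ranked by mean r with HLA-B, B2M was at rank 2 and HLA-C at rank 5, beside the ferritin chains FTH1 at rank 1 (0.23) and FTL at rank 3 (0.19) and the metalloproteinase inhibitor TIMP1 at rank 4 (0.15). FTH1 was also first for HLA-C and for B2M. The r of B2M with the cell's own total UMIs, after thinning, was between −0.18 and −0.01, and that of HLA-B was between −0.09 and 0.01. The r of B2M with the summed interferon-stimulated genes was between 0.06 and 0.11. What these shared patterns come from was not tested.

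The rest of the pathway was taken from lists chosen with earlier results of these data known. Peptide-loading genes (10 of 10 passed the filter on low counts) had none called in either direction. Between HaloTag and Dendra2, 0 of 10 had an unadjusted edgeR p under 0.05, against 19.5% of all genes. In that comparison 9 of 10 were above 0, with a median of 0.13, against 52.5% of all genes and a median of 0.03. CANX, calnexin, which holds new heavy chains, had 0.24 ± 0.16 (edgeR adjusted p = 0.434), and LNPEP, an endosomal aminopeptidase that trims peptides, had 0.24 ± 0.23 (edgeR adjusted p = 0.605). Proteasome genes (7 of 7) had none called, and all 7 were below 0 between tags, with a median of −0.44 against 0.03 over all genes and 5 of 7 at an unadjusted p under 0.05, against 19.5% of all genes. PSMB10, the remaining immunoproteasome catalytic subunit, had 43.6, 41.3 and 44.03 CPM in HaloTag with 25R, 52R and 70R, against 84.0, 52.8 and 77.2 CPM in Dendra2 (log2 −0.70 ± 0.16; edgeR unadjusted p = 0.00351, adjusted p = 0.123). Its 2 tags did not overlap. PSME2, a subunit of the PA28 activator, had 154, 185 and 169 CPM in HaloTag, against 283, 250.7 and 208 CPM in Dendra2, also without overlap (log2 −0.53 ± 0.15; edgeR adjusted p = 0.156).

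Of 7 other class I or class I-like heavy chains, 5 passed the filter on low counts and none was called. At an unadjusted edgeR p under 0.05 between tags there were 3 of 5, against 19.5% of all genes. These were MICA and HLA-G, below 0, and MR1, above 0. HLA-G stood at no more than 0.281 CPM. MR1, named after its values were seen, had 9.29, 4.83 and 7.72 CPM in HaloTag with 25R, 52R and 70R. Against these stood 2.11, 3.09 and 3.17 CPM in Dendra2 (log2 1.35 ± 0.31, edgeR adjusted p = 0.13). MICA, a stress-induced ligand of NKG2D, had 35.3, 33.0 and 27.2 CPM in HaloTag with 25R, 52R and 70R, against 48.2, 41.5 and 46.5 CPM in Dendra2 (log2 −0.52 ± 0.14; edgeR adjusted p = 0.152). Regulators of the pathway (29 of 29) had none called and 7 of 29 at an unadjusted edgeR p under 0.05 between tags, near the 19.5% of all genes, with 10 above 0 between tags (52.5% of all genes) and 11 above 0 between 25R and 52R (50.7% of all genes). NFKBIA, the inhibitor of NF-κB, had −0.62 ± 0.15 (edgeR adjusted p = 0.13), and EZH2, a histone methyltransferase that can silence these genes, had −0.58 ± 0.21 (edgeR adjusted p = 0.209) between HaloTag and Dendra2. NLRC5, the class I transactivator, had 2.06, 2.21 and 3.62 CPM in HaloTag, against 3.04, 2.34 and 2.29 CPM in the Dendra2 libraries of 25R, 52R and 70R. Of the class II genes, 5 of 8 passed the filter and none was called, with 1 of 5 at an unadjusted edgeR p under 0.05 between tags, near that share of all genes. HLA-DPB1, a class II β chain, had −0.63 ± 0.16 between HaloTag and Dendra2 (edgeR adjusted p = 0.139).

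Of 28 interferon-stimulated genes, 23 passed the filter, and none was called in any of the 4 comparisons. Between 25R and 52R, 21 of 23 were below 0, with a median of −0.87 against 0.01 over all genes, and 14 of 23 had an unadjusted edgeR p under 0.05, against 12.7% of all genes. The 9 class I genes had a median of 0.12 in the same comparison, with 4 below 0. The fitted PSMB9 value of −0.91 lay near the interferon-stimulated median, but its pairs had −1.59 with HaloTag and −0.33 with Dendra2. HLA-C, B2M and TAPBP had fitted values between −0.27 and −0.22. TAP1, TAP2 and HLA-E lay above 0, as did HLA-B and PSMB8. SP110, a nuclear body protein, had 99.8, 20.8 and 21.0 CPM in HaloTag with 25R, 52R and 70R, against 24.1, 13.7 and 16.1 CPM in Dendra2 (log2 1.62 ± 0.41 between 25R and 52R; edgeR adjusted p = 0.254). Its highest library was HaloTag 25R, as for TAP1 and HLA-E. ISG15, a ubiquitin-like modifier, had −0.47 ± 0.12 between HaloTag and Dendra2 (edgeR adjusted p = 0.139). GBP1, an interferon-induced GTPase named after its values were seen, had 0.304, 4.38 and 11.3 CPM in HaloTag, against 0.503, 1.97 and 2.06 CPM in the Dendra2 libraries of 25R, 52R and 70R, lowest in the 25R library of each tag as PSMB9 was with HaloTag.

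**Figure D5:**
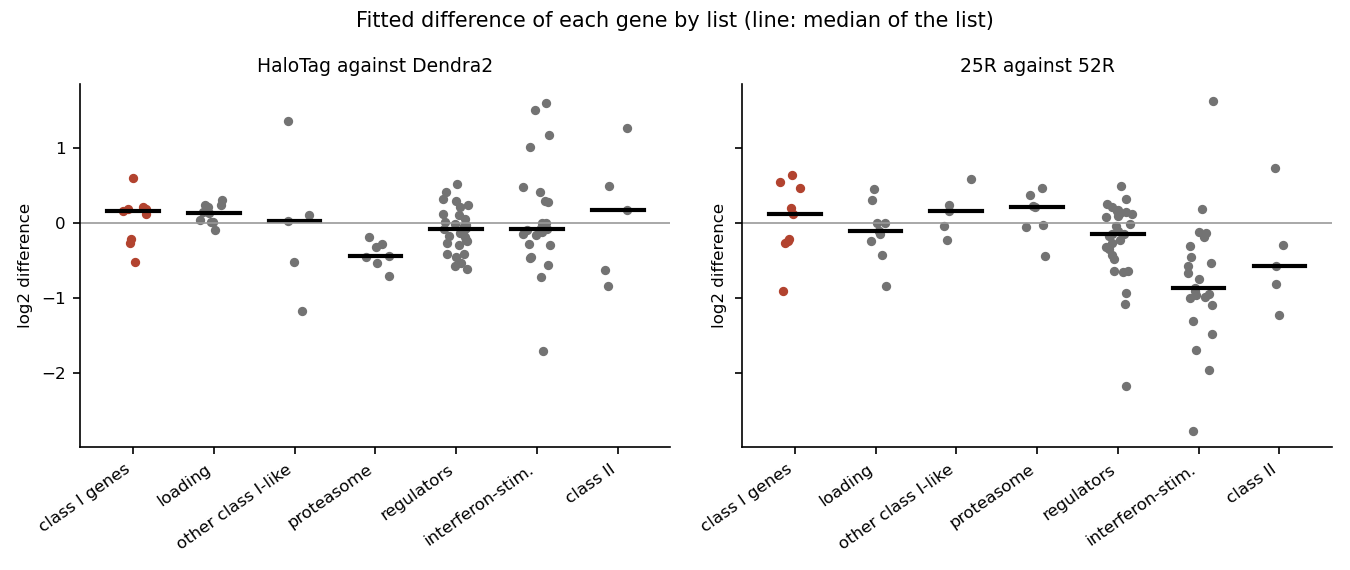
Fitted log2 difference of each gene that passed the filter (dots; class I genes red) by list, with the list's median as a line, between HaloTag and Dendra2 (left) and between 25R and 52R (right). The interferon-stimulated median lies at −0.87 on the right, where the median of the 9 class I genes is 0.12, and the proteasome median lies at −0.44 on the left.

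Outside the pathway, the genes whose log2 CPM followed these genes most closely over the 6 libraries were sought among 8173 genes with a mean of at least 10 CPM. The nearest was TULP3 for HLA-B (r = 0.99), HERC2 for PSMB9 (r = 0.99), SF3A3 for TAP1 (r = 0.998) and MTHFD2L for HLA-E (r = 0.999). The nearest to B2M was IFT52 (r = 0.97). For the mean of the 9 genes they were CENPC, RBM6 and EIF2B4, with r of 0.98, 0.95 and 0.95. With 6 points many genes come close: 200 genes had r over 0.9 with TAP1 and 138 with PSMB9, against 14 with the mean of the group.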

How the data were processed

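The authors' deposited UMI counts per gene and barcode come from Cell Ranger 6.1.2 (file headers) and reads converted with bcl2fastq and mapped to GRCh38, per the submitters' processing notes; the runs of a HaloTag library are merged in the deposited counts. The authors' deposited kinetic tables come from a beta-Poisson fit to cells that passed the authors' quality control, per the path lines in those files; which tool did so is not given in the sources at hand. The 9 genes and all lists were chosen with earlier results of these data known.

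Barcodes under 500 genes or over 20% mitochondrial UMIs were dropped (2.01% to 3.03%); no doublet caller was run, and the row of the tag sequence was left out. Counts were summed per library. The 18069 genes left by filterByExpr were scaled with TMM and tested with edgeR 4.0.16 (quasi-likelihood, tag plus CTD length, Benjamini-Hochberg over all genes, adjusted p under 0.05) in R 4.3.3, beside DESeq2 1.42.0. K and the mean over K were tested on a log10 scale with limma 3.58.1 for the 9710 genes averaging 0.1 UMIs per cell or more. Like edgeR, limma pools spread over genes. Intervals are 95%, Poisson or exact binomial, and cover counting error only. Cells were thinned to 5000 UMIs for shares and correlations. Promoter windows were RefSeq's (GRCh38.p14), gene spans GENCODE v44's. Fits were tested on simulated data. Genes outside the group were named by rule: from each list up to 4 called genes, otherwise the 2 with the largest difference between tags among those with a mean of at least 10 CPM, plus the nearest genes by r. GBP1, NLRC5, FTH1, FTL, TIMP1, MR1 and HLA-G were named after their values were seen, and marker genes as the check of the label. Alternatives were other scalings, filters, tools, designs and leaving out each library.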

Additional observations from a re-analysis of the deposited data

Results flagged for a closer look

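In 10 of 27 gene and CTD comparisons looked at, the HaloTag pair and the Dendra2 pair had log2 differences of opposite sign, with counting intervals that excluded 0. With 1 library per genotype the difference between tags was not tested. For 25R against 52R the values were −0.262 in HaloTag and 0.606 in Dendra2 for HLA-B, −0.563 in HaloTag and 0.094 in Dendra2 for HLA-C, and −0.152 in HaloTag and 0.357 in Dendra2 for PSMB8. For 70R against 52R HLA-E had −0.165 in HaloTag and 0.173 in Dendra2. For 70R against 25R HLA-B had 0.411 in HaloTag and −0.565 in Dendra2, HLA-C had 0.39 in HaloTag and −0.419 in Dendra2, and B2M had 0.243 in HaloTag and −0.397 in Dendra2. In that comparison TAPBP had −0.183 in HaloTag and 0.158 in Dendra2, PSMB8 had 0.322 in HaloTag and −0.388 in Dendra2, and PSMB9 had 0.942 in HaloTag and −0.41 in Dendra2. Opposite signs were also found for 17.8% of genes in 25R against 52R, 19.5% in 70R against 52R and 24% in 70R against 25R. Groups of 3 libraries are too small for a search for outlying libraries.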

How the results depend on the processing

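Of 324 differences in level recomputed with another scaling, filter, tool or design, 309 kept their direction and side of the threshold and 15 reversed, and of 216 recomputed without 1 library 185 did, 30 reversed and 1 passed the threshold. Of 50 bursting differences 48 did and 2 reversed, and of 108 without 1 library 86 did and 22 reversed. The causes were not tested. Scaling by library totals without mitochondrial genes put the median of all genes between tags at 0.15, against 0.03. No paired analysis was possible by replicate number because the run numbers in the labels mark sequencing runs of 1 library, merged in the files. The edgeR fits with tag plus CTD length did compare the tags within each CTD length, whereas the exact permutation tests did not. Depth is not what limits the levels, whose counting intervals are narrow; the single library per genotype is.

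Genes called between HaloTag and Dendra2 numbered 47, and 82 with library totals without mitochondrial genes, 327 with no filter, 1123 with DESeq2 and 30 without the CTD term. For 25R against 52R they numbered 8, and 0 with DESeq2 size factors, 104 with no filter, 489 with DESeq2 and 0 without the tag term. For 70R against 52R they numbered 0, and 2 with no filter, 1 after thinning and 67 with DESeq2. For 70R against 25R they numbered 0, and 50 with no filter and 448 with DESeq2. For burst frequency they numbered 0, and 123 at a mean of at least 0.5 UMIs. For burst size they numbered 134, and 0 over all finite genes, 452 at a mean of at least 0.5 UMIs and 43 after centring. Without thinning, mean r across cells was 0.344 for HLA-B and B2M, 0.281 for HLA-B and HLA-C and 0.248 for HLA-C and B2M.

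For 70R against 52R, HLA-E was −0.011 with genes of at least 10 CPM and −0.13 after thinning, where PSMB8 was −0.014. For 70R against 25R, HLA-B was 0.0014 without the tag term, HLA-C was 0.018 with library totals and 0.030 without mitochondrial genes, and PSMB8 was 0.0052 and 0.017 in the same order. TAPBP there was 0.0038 with DESeq2 size factors and with DESeq2, 0.044 with library totals, 0.056 without mitochondrial genes, 0.0075 with no filter, 0.00065 with all barcodes and 0.0014 after thinning. Centred burst size was 0.035 for HLA-E and 0.0060 for TAPBP.

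Leaving out 1 library in turn gave 6 (without HaloTag 52R) to 105 (without HaloTag 25R) genes called between tags, 0 to 538 (without Dendra2 25R) for 25R against 52R, 0 to 2 for 70R against 52R, 0 to 523 for 70R against 25R and 58 to 100 for burst size, and 0 to 1 of the 9 genes for 25R against 52R. Between tags HLA-C ranged over −0.046 to 0.34, HLA-E over −0.0076 to 0.31 and B2M over −0.035 to 0.31. For 25R against 52R HLA-B ranged over −0.27 to 0.62, HLA-C over −0.58 to 0.12, TAPBP over −0.46 to 0.0099 and PSMB8 over −0.18 to 0.39. For 70R against 52R HLA-B ranged over −0.19 to 0.35, HLA-E over −0.23 to 0.24, TAP1 over −0.0072 to 0.29, TAPBP over −0.49 to 0.0038 and PSMB8 over −0.16 to 0.29. For 70R against 25R HLA-B ranged over −0.52 to 0.37, HLA-C over −0.36 to 0.34, B2M over −0.40 to 0.26, TAP2 over −0.31 to 0.042, TAPBP over −0.26 to 0.24, PSMB8 over −0.32 to 0.26 and PSMB9 over −0.37 to 0.90. Burst frequency (log10) ranged over −0.026 to 0.096 for HLA-B, −0.018 to 0.14 for HLA-C, −0.042 to 0.055 for HLA-E, −0.82 to 0.025 for TAP2, −0.090 to 0.13 for TAPBP and −0.059 to 0.026 for PSMB8. Burst size (log10) ranged over −0.0085 to 0.15 for HLA-B, −0.11 to 0.0095 for HLA-E and −0.24 to 0.76 for TAP2.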
